A study of Mus musculus with 16 samples.

Results

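The sensory transduction channels described here are 8 genes, chosen by name: the TRP channels Trpv1, Trpv2, Trpa1, Trpm2, Trpm3 and Trpm8 and the mechanically gated channels Piezo1 and Piezo2. Each had 1 row in a deposited table of 36722 genes. RNA came from lumbar dorsal root ganglia (DRG), which hold the cell bodies of sensory neurons, of C57BL/6 mice. All 3 groups carried the same inflammation, made with 20 µl of 2% carrageenan under the skin of the paw, and each received its treatment into the spinal fluid 6 days later. The fusion protein group had 1 µg of IL4-10 FP, in which the 2 cytokines are joined in 1 molecule (6 libraries). The combination group had IL4 and IL10 unlinked, at 0.5 µg each (5 libraries), and the vehicle group had PBS (5 libraries). Ganglia were taken 6 hours after this treatment, so the samples used here hold no animal without inflammation. The labels do not say that the samples of a group came from different mice, so the p-values measure the spread between these samples, which may be technical.

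TRP channels are tetrameric cation channels that open to heat, cold, irritants or lipids. In sensory neurons their opening depolarises the nerve ending. TRPV1 answers to noxious heat and capsaicin, TRPA1 to pungent and reactive chemicals, TRPM8 to cool temperature and menthol, and TRPM3 to heat and pregnenolone sulphate. PIEZO channels are very large proteins that assemble as trimers and open when the membrane is stretched. PIEZO2 carries most of the rapidly adapting mechanical current of touch and body-position neurons, whereas PIEZO1 is best known from blood vessels, red cells and other cells outside the nervous system.

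Values are given on 2 scales. The log2 value is the deposited variance-stabilised value. The scaled value is the whole number it decodes to, in which a gene that was not detected was taken to have the value 1. Scaled values are not read counts, and the depth of the libraries is unknown. They summed per library to 16707007 to 19083947 in the fusion protein group, 18192127 to 20879857 in the combination group and 17228512 to 18733358 in the vehicle group. All 14 pan-neuronal marker genes were above the filter on low values, with summed scaled values of 215831 to 290334 in fusion protein, 236008 to 286510 in combination and 215116 to 257036 in vehicle libraries. In such whole-tissue RNA, fewer cells of a type and less RNA per cell cannot be told apart. The scaled values of 12 macrophage markers summed to 3540 to 7134 in fusion protein, 2839 to 4032 in combination and 2188 to 4023 in vehicle libraries. Of the 12, 7 were higher with fusion protein than with vehicle (limma, adjusted p under 0.05), beside 12% of the 13385 genes tested. The scaled values of 8 endothelial markers summed to 2592 to 3477 in fusion protein, 2651 to 3114 in combination and 2542 to 3208 in vehicle libraries. Of the 8, 1 was higher with fusion protein than with vehicle, beside the same 12% of all tested genes. Of 8 satellite glia markers, 4 were higher with combination than with vehicle, beside 24.2% of all tested genes. Of the same 8, 4 were lower with fusion protein than with combination, beside 22.2%. Fabp7 was among both (0.84 and -0.78 on the log2 scale). Of the fibroblast markers, Lum (0.69) and Dcn (0.60) were higher with combination than with vehicle, and the Schwann cell and glia gene Sox10 was lower (-0.80). The part of other cell types in the results below was not tested.

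All 8 channel genes were expressed above the filter. Per kb of exon, Trpv1, the capsaicin receptor, was the highest on average in each group, with scaled values of 813 ± 61.8 per kb in fusion protein (SD, n = 6), 869 ± 130 in combination and 712 ± 74.8 in vehicle libraries (SD, n = 5 each). Piezo2, the touch channel, came next, at 483 ± 69.0 per kb in fusion protein, 624 ± 95.9 in combination and 662 ± 102 in vehicle libraries. The ranges of these 2 genes overlapped in combination and vehicle libraries and were apart in fusion protein libraries, where every library had more Trpv1 than any had Piezo2 on this scale. Trpa1, Trpm8 and Trpv2 followed in each group. Their mean scaled values lay between 257 and 456 per kb in fusion protein, 310 and 516 in combination and 282 and 376 in vehicle libraries, and the ranges of Trpm8 and Trpv2 overlapped in each group. Trpm3 averaged 42.2 per kb in fusion protein, 56.3 in combination and 55.3 in vehicle libraries, below the range of every gene named so far. Trpm2 averaged 39.4, 40.0 and 48.5 per kb in fusion protein, combination and vehicle libraries, and its range was apart from that of Trpm3 in the combination group alone. Piezo1 was last at 17.5 ± 4.43 per kb in fusion protein, 10.7 ± 2.88 in combination and 19.3 ± 2.72 in vehicle libraries. Lengths here are the union of all annotated exons. When the longest transcript was used in its place, Piezo2 was first in combination and vehicle libraries, at 998 and 1059 per kb, and Trpv1 was first in fusion protein libraries, at 890 per kb.

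**Figure D1:**
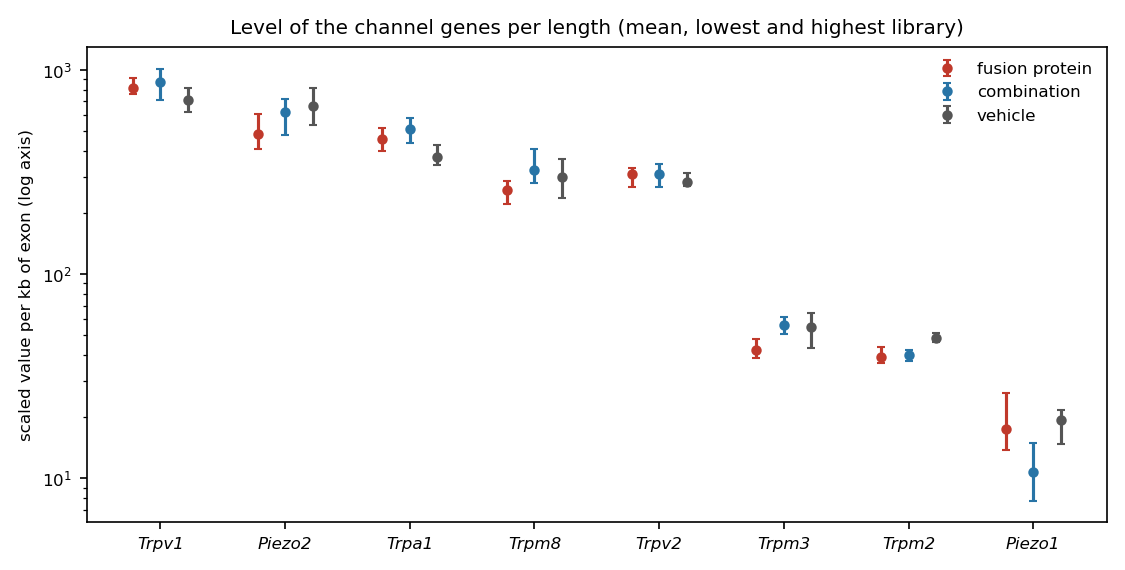
Level of the 8 channel genes as scaled value per kb of exon on a log axis, by group. Points are group means and bars run from the lowest to the highest library. Trpv1 lies at the top in each group, and Piezo1 lies at the bottom at 10.7 to 19.3 per kb.

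Promoter sequence was read from the RefSeq table of GRCm38.p6, which held 6 of the genes (Trpv1, Trpv2, Trpm2, Trpm3, Trpm8 and Piezo1). IL-4 and IL-10 signal through STAT transcription factors, which bind palindromes of the form TTCNNNGAA, or TTCNNNNGAA for the STAT6 of the IL-4 receptor. These, and the interferon-type motif GAAANNGAAA, were searched on both strands in the 250 bases before each start. The 3 windows below are shown because these genes carry the differences of the TRPM family between the groups and because 2 of them hold a match, in capitals.
Trpm2, chr10:77969873-77970122, minus strand: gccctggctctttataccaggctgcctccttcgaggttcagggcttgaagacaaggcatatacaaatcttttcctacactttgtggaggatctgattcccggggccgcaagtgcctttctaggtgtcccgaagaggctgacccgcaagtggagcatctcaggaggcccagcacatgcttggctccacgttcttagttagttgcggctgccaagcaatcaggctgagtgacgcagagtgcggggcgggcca
Trpm3, second start, chr19:22447958-22448207, plus strand: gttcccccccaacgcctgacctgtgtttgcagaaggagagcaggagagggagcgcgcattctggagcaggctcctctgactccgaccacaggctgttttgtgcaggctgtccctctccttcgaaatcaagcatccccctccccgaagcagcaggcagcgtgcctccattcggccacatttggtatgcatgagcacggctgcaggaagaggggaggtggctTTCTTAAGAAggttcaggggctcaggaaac
Trpm8, chr1:88306485-88306734, plus strand: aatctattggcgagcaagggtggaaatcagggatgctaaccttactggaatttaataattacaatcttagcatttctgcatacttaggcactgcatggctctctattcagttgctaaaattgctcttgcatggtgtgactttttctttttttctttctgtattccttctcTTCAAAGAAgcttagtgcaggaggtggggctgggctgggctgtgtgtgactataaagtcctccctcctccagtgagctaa
The Trpm2 window held none of the 3 motifs, with a GC content of 56.8% and 10 CpG. The 2 listed starts of Trpm3 lie 309162 bases apart, and the second start held 1 match to TTCNNNNGAA. The Trpm8 window held 1 match to TTCNNNGAA in sequence of 42.8% GC with 1 CpG. Over all 32851 windows of this length in the table, 7.02% held TTCNNNGAA, 5.85% held TTCNNNNGAA and 2.98% held GAAANNGAAA. The matches overlapped no other match, and the windows of Trpv1, Trpv2, the first start of Trpm3 and Piezo1 held none, and that of Piezo1 had 26 CpG and 74% GC, against medians of 6 CpG and 52.4% GC over all windows. A match describes the letters and is not a binding site.

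The title of the series sets the linked cytokines against the unlinked pair in mice with inflammatory pain. With fusion protein, Trpa1 was higher than with vehicle, and Trpm2, Trpm3 and Piezo2 were lower, so 4 of 8 genes passed an adjusted p of 0.05 (limma) beside 25.8% of the 13385 genes tested. In each direction the background was 12% higher and 13.7% lower. With the combination, Trpv1 and Trpa1 were higher than with vehicle, and Trpm2 and Piezo1 were lower, which again makes 4 of 8, beside 36.5% of all tested genes (24.2% higher and 12.3% lower). Set against the combination directly, the fusion protein gave lower Trpm3, Trpm8 and Piezo2 and higher Piezo1, 4 of 8 beside 29.5% of all tested genes (7.35% higher and 22.2% lower). With GC and length trends removed the counts were 2 of 8 beside 25.3% of all genes for fusion protein against vehicle, 1 of 8 beside 25.3% for combination against vehicle and 0 of 8 beside 10.2% for fusion protein against combination (limma, 3 of 8 at an unadjusted p under 0.05), none of which stood above that share. The median log2 difference of the 8 genes was -0.14 for fusion protein against vehicle, where that of all tested genes was -0.02. It was 0.07 for combination against vehicle, where that of all tested genes was 0.06, and -0.12 for fusion protein against combination, where that of all tested genes was -0.09.

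**Figure D2:**
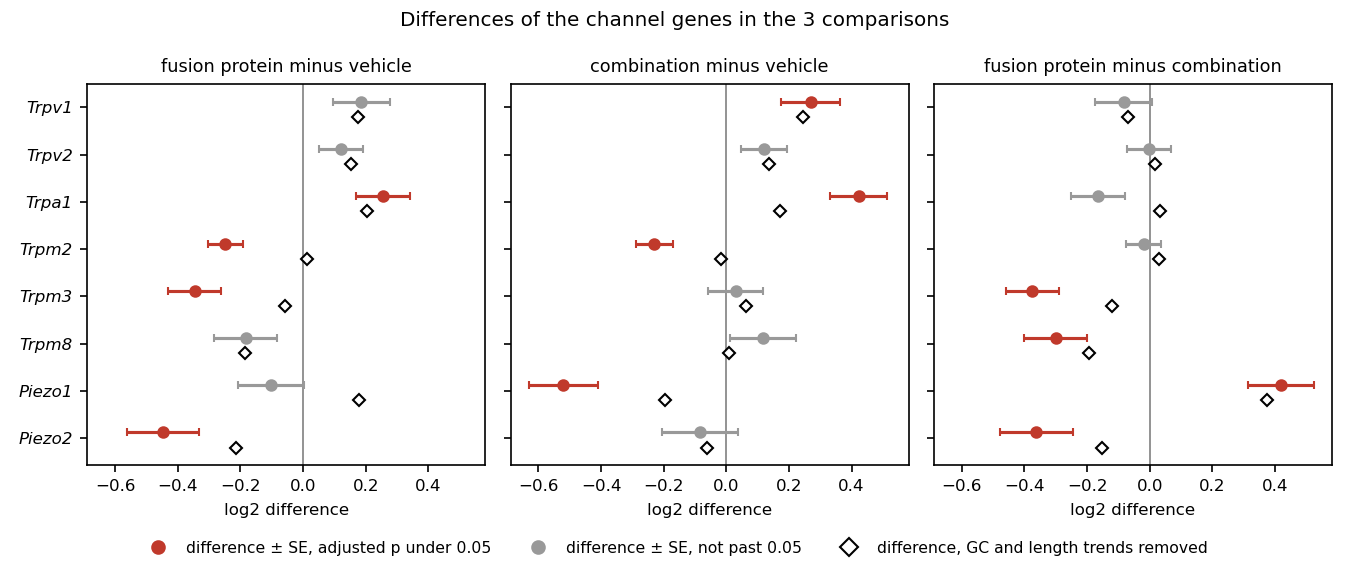
Log2 difference with its SE for each of the 8 genes in the 3 comparisons. Filled red points passed an adjusted p of 0.05, filled grey points did not, and open diamonds give the difference after trends with GC content and exon length were removed from each library. Trpa1 lies above zero and Trpm2 below zero against vehicle in both treatments, and the diamonds of Trpm2 and Trpm3 lie near zero against vehicle.

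Trends of the log2 values with GC content and exon length differed between libraries and moved with the groups. Between fusion protein and vehicle they amounted to -0.26 at the GC content and length of Trpm2, -0.29 at those of Trpm3 and 0.01 at those of Trpv1. The difference after their removal stands below beside each call that it ended. In the fusion protein group 2 of 6 libraries had sample numbers of 12 to 19, as did all 5 of the combination group and 1 of 5 of the vehicle group. The remaining libraries had numbers of 1 to 8. What the numbers mean is not given. Among numbers 1 to 8 (4 libraries a group), fusion protein against vehicle gave 0.26 for Trpa1 (adjusted p = 0.0973), -0.28 for Trpm2 (adjusted p = 0.0168), -0.32 for Trpm3 (adjusted p = 0.0722) and -0.41 for Piezo2 (adjusted p = 0.0704). Among numbers 12 to 19 the combination could be set against 1 vehicle library only, with differences of 0.20 for Trpv1, 0.49 for Trpa1, -0.17 for Trpm2 and -0.53 for Piezo1. Fusion protein (2 libraries) against combination (5 libraries) gave -0.48 for Trpm3 (adjusted p = 0.00458), -0.41 for Trpm8 (adjusted p = 0.0254), 0.37 for Piezo1 (adjusted p = 0.0395) and -0.45 for Piezo2 (adjusted p = 0.0239) there.

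Trpv1 (ENSMUSG00000005952, GRCm38 chromosome 11, 73234292 to 73261242, plus strand) had scaled values from 2800 to 3357 with a median of 2915 in fusion protein libraries. Its scaled values were 2608, 2883, 3624, 3143 and 3731 in combination libraries and 2646, 2434, 2989, 2280 and 2747 in vehicle libraries. The groups overlapped, although 3 of 5 combination libraries were above every vehicle library. Combination exceeded vehicle by a log2 difference of 0.27 ± 0.09 (SE, adjusted p = 0.0302). This call ended when any of 5 single libraries was left out (combination replicates 3, 4 and 5 and vehicle replicates 2 and 4, smallest difference 0.21), with the late sample numbers as a covariate (0.15, adjusted p = 0.342) and with quantile normalisation (0.12, adjusted p = 0.311). The fusion protein difference was 0.19 ± 0.09 (adjusted p = 0.135, 95% interval -0.00 to 0.37), and fusion protein against combination gave -0.08 ± 0.09 (adjusted p = 0.484, 95% interval -0.27 to 0.10).

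Trpv2 (ENSMUSG00000018507, chromosome 11, 62574486 to 62600515, plus strand) encodes a close relative of TRPV1 that in rodents was first described as a sensor of very high heat in larger sensory neurons. It had scaled values from 1197 to 1483 with a median of 1421 in fusion protein libraries, 1462, 1197, 1418, 1315 and 1559 in combination libraries and 1257, 1205, 1231, 1237 and 1395 in vehicle libraries. The groups overlapped, and no comparison passed the test. The log2 difference was 0.12 ± 0.07 for fusion protein against vehicle (adjusted p = 0.217, 95% interval -0.03 to 0.27) and 0.12 ± 0.07 for combination against vehicle (adjusted p = 0.207, 95% interval -0.03 to 0.27). Between fusion protein and combination it was -0.00 ± 0.07 (adjusted p = 0.992, 95% interval -0.15 to 0.15).

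Trpa1 (ENSMUSG00000032769, chromosome 1, 14872648 to 14918862, minus strand), the irritant receptor, was the gene of the set that was higher with both treatments. Its scaled values ran from 1708 to 2208 with a median of 1906.5 in fusion protein libraries, were 1965, 2467, 1865, 2361 and 2331 in combination libraries, and were 1462, 1634, 1570, 1836 and 1517 in vehicle libraries. Every combination library lay above every vehicle library, whereas fusion protein and vehicle libraries overlapped. Ranges were apart for 23% of all tested genes between combination and vehicle. The log2 difference was 0.26 ± 0.09 for fusion protein (adjusted p = 0.0345) and 0.42 ± 0.09 for combination (adjusted p = 0.00137) against vehicle. The difference between fusion protein and combination, -0.17 ± 0.09, did not pass (adjusted p = 0.142, 95% interval -0.35 to 0.01). The fusion protein call ended in 7 of 11 fits that left out 1 library (fusion protein replicates 1, 2 and 6 and vehicle replicates 1, 2, 3 and 5; range 0.22 to 0.30), and it was 0.25 with the replicate block (adjusted p = 0.0552). The combination difference was 0.17 with GC and length trends removed (adjusted p = 0.053) and 0.21 with the longest transcript as length (adjusted p = 0.0189).

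Trpm2 (ENSMUSG00000009292, chromosome 10, 77907722 to 77970563, minus strand) encodes a channel opened by ADP-ribose, oxidative stress and warmth that is also known from macrophages and neutrophils. Its scaled values ran from 459 to 545 with a median of 477.5 in fusion protein libraries, were 465, 493, 484, 524 and 527 in combination libraries, and were 620, 589, 639, 597 and 576 in vehicle libraries. Each library of both treated groups was below each vehicle library. Ranges were apart for 14.3% of all tested genes between fusion protein and vehicle. Trpm2 fell by 0.25 ± 0.06 on the log2 scale with fusion protein (adjusted p = 0.0035) and by 0.23 ± 0.06 with the combination (adjusted p = 0.005). Its SD within groups, 0.066 on the log2 scale, ranked at percentile 1.74 of the tested genes. With GC and length trends removed the difference from vehicle was 0.01 for fusion protein (adjusted p = 0.874) and -0.02 for combination (adjusted p = 0.836). Between fusion protein and combination the log2 difference was -0.02 ± 0.06 (adjusted p = 0.816, 95% interval -0.14 to 0.10).

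Trpm3 (ENSMUSG00000052387, chromosome 19, 22139046 to 22995410, plus strand), a heat and steroid receptor of nociceptors in mice, had scaled values from 949 to 1171 with a median of 1007 in fusion protein libraries. It had 1240, 1507, 1320, 1345 and 1461 in combination libraries and 1062, 1410, 1580, 1445 and 1261 in vehicle libraries. All fusion protein libraries were below all combination libraries, and 4 of 6 were below all vehicle libraries. Ranges were apart for 9.53% of all tested genes between fusion protein and combination. Trpm3 fell by 0.35 ± 0.08 on the log2 scale with fusion protein against vehicle (adjusted p = 0.00588) and by 0.38 ± 0.08 against combination (adjusted p = 0.00717). Combination and vehicle differed by 0.03 ± 0.09 (adjusted p = 0.815, 95% interval -0.15 to 0.21). With GC and length trends removed the 2 called differences were -0.06 (adjusted p = 0.406) against vehicle and -0.12 (adjusted p = 0.104) against combination.

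Trpm8 (ENSMUSG00000036251, chromosome 1, 88277661 to 88389293, plus strand), the cold and menthol receptor, had scaled values from 1040 to 1347 with a median of 1205.5 in fusion protein libraries. It had 1397, 1327, 1614, 1400 and 1948 in combination libraries and 1112, 1435, 1453, 1723 and 1314 in vehicle libraries. Of the 6 fusion protein libraries, 5 lay below every combination library, while vehicle libraries overlapped both treated groups. The log2 difference between fusion protein and combination was -0.30 ± 0.10 (adjusted p = 0.0328). Against vehicle it was -0.18 ± 0.10 for fusion protein (adjusted p = 0.19, 95% interval -0.39 to 0.03) and 0.12 ± 0.10 for combination (adjusted p = 0.404, 95% interval -0.10 to 0.34). With 1 library left out these values ran from -0.26 (without vehicle replicate 1) to -0.11 (without vehicle replicate 4) for fusion protein and from 0.03 (without combination replicate 5) to 0.19 (without vehicle replicate 4) for combination. The call between the treatments ended when fusion protein replicate 3, 5 or 6 or combination replicate 3 or 5 was left out (smallest difference -0.22), with the replicate block (-0.26, adjusted p = 0.0687), with quantile normalisation (-0.19, adjusted p = 0.134) and with GC and length trends removed (-0.19, adjusted p = 0.159).

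**Figure D3:**
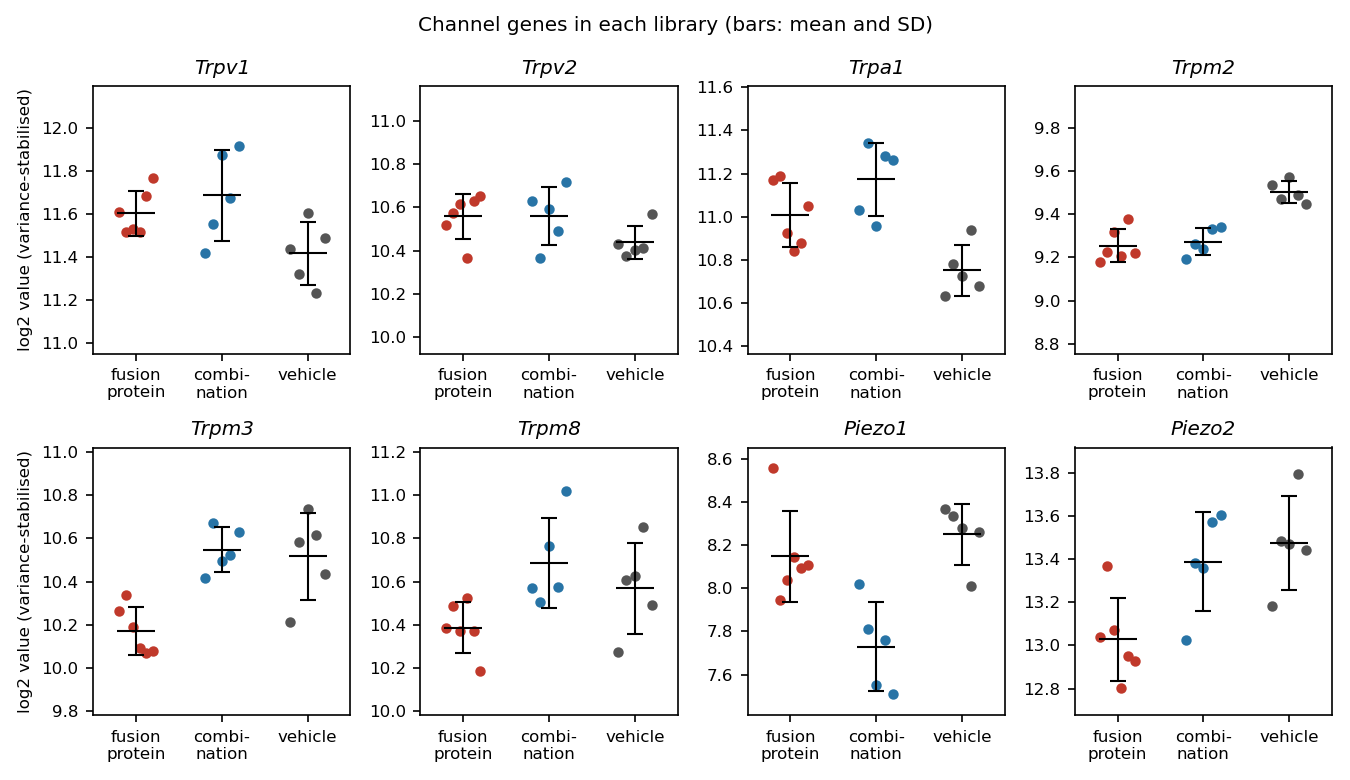
Deposited log2 value of each of the 8 genes in every library, with the mean and SD of each group. The fusion protein group is at the left, the combination in the middle and vehicle at the right. For Trpm2 all treated libraries lie below all vehicle libraries, and for Trpm3 all fusion protein libraries lie below all combination libraries.

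Piezo1 (ENSMUSG00000014444, chromosome 8, 122481698 to 122551329, minus strand) had scaled values of 260, 136, 151, 170, 161 and 163 in fusion protein libraries, 148, 115, 82, 108 and 77 in combination libraries and 215, 208, 196, 146 and 193 in vehicle libraries. Combination libraries were low, with 4 of 5 below every vehicle library, and 5 of 6 fusion protein libraries lay above every combination library. Against vehicle Piezo1 fell by 0.52 ± 0.11 on the log2 scale with the combination (adjusted p = 0.00136), and its difference with fusion protein was -0.10 ± 0.11 (adjusted p = 0.503, 95% interval -0.32 to 0.12). Fusion protein exceeded combination by 0.42 ± 0.11 (adjusted p = 0.011). On log2 of the scaled value plus 1, where differences of low genes are not compressed, the differences were -0.88 for combination against vehicle (adjusted p = 0.00109) and 0.71 for fusion protein against combination (adjusted p = 0.00928). Exons of Piezo1 overlap 24.6% of their length with those of Ctu2, a tRNA-modifying enzyme gene on the opposite strand. Whether counting used strand is not given in the sources used here, so it is unknown how reads in the shared bases were assigned. Ctu2 averaged a scaled value of 138 in fusion protein, 109 in combination and 150 in vehicle libraries, and with the combination it fell by 0.27 ± 0.09 on the log2 scale against vehicle (adjusted p = 0.0254). After removal of the GC and length trends the Piezo1 differences were -0.20 for combination against vehicle (adjusted p = 0.254) and 0.37 for fusion protein against combination (adjusted p = 0.0508).

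Piezo2 (ENSMUSG00000041482, chromosome 18, 63010213 to 63387183, minus strand) had scaled values from 7016 to 10460 with a median of 8041 in fusion protein libraries. It had 8198, 10558, 10387, 12065 and 12312 in combination libraries and 9162, 11335, 11202, 14057 and 11011 in vehicle libraries. Fusion protein libraries were low, with 5 of 6 below every vehicle library and 3 of 6 below every combination library. Piezo2 fell by 0.45 ± 0.12 on the log2 scale with fusion protein against vehicle (adjusted p = 0.00841) and by 0.36 ± 0.12 against combination (adjusted p = 0.0275). Combination and vehicle differed by -0.09 ± 0.12 (adjusted p = 0.614, 95% interval -0.34 to 0.17). The difference from vehicle was past the threshold in all 11 fits that left out 1 library and was -0.21 with GC and length trends removed (adjusted p = 0.0405), or -0.19 with the longest transcript as length (adjusted p = 0.0529). The difference from combination ended in 6 of 11 such fits (fusion protein replicates 4, 5 and 6 and combination replicates 2, 4 and 5) and was -0.15 with the trends removed (adjusted p = 0.176) and -0.18 with quantile normalisation (adjusted p = 0.139).

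After group means were removed, Piezo2 correlated with Trpa1 (Pearson r = 0.73), with Trpm3 (0.70) and with Trpm8 (0.59) across the 16 libraries, and Piezo1 went the other way, with r = -0.60 to Piezo2 and -0.55 to Trpm8. Trpv1 and Trpv2 correlated with each other at 0.43 and with Piezo2 at 0.08 and 0.07. These values are descriptions. The points share libraries, and genes of like length and GC content share the trends described above. The gene most like Piezo2 was Strn, which encodes the scaffold protein striatin (Pearson r = 0.97, Spearman rho = 0.96), followed by Phactr2 (0.96 and 0.88). For Trpv2 it was Grina (0.96 and 0.94) and Smyd5 (0.96 and 0.95), for Trpm3 Mlh3 (0.93 and 0.88) and Pogz (0.92 and 0.92), for Piezo1 Lfng (0.91 and 0.85) and Rab7b (0.91 and 0.88), and for Trpa1 Nav1 (0.90 and 0.90) and Cdc14b (0.90 and 0.90). The nearest genes of Trpm8 were Efnb2 (0.87 and 0.83) and Uqcrh (0.86 and 0.86), and those of Trpv1 were Trim59 (0.86 and 0.81) and Cln8 (0.81 and 0.81). Those of Trpm2 were Neil2 (0.83 and 0.86) and Scml4 (0.83 and 0.90). Without removal of the group means, r over these pairs ran from -0.04 (Trpa1 and Nav1) to 0.96 (Trpv2 and Smyd5).

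Of the 22 other TRP channel genes listed, 12 were above the filter. With fusion protein against vehicle 1 of 12 fell and none rose, where 13.7% of all tested genes fell and 12% rose. With the combination against vehicle, 1 of 12 rose and 1 fell, where 24.2% of all tested genes rose and 12.3% fell. Trpc6, a channel opened by diacylglycerol, averaged a scaled value of 926 ± 120 in combination and 623 ± 46.4 in vehicle libraries and rose by 0.49 ± 0.08 on the log2 scale (adjusted p = 0.000223). Trpm4, a calcium-activated channel that passes sodium, averaged 303 ± 19.0 in combination and 397 ± 52.0 in vehicle libraries and fell by 0.29 ± 0.07 (adjusted p = 0.00445). Between fusion protein and combination, 1 of 12 was higher with fusion protein (Trpm4, 0.25 ± 0.07, adjusted p = 0.0149) and 5 of 12 were lower, among them Trpc6 (-0.34 ± 0.08, adjusted p = 0.00828) and Trpc4 (-0.24 ± 0.07, adjusted p = 0.0217). Of all tested genes, 7.35% were higher and 22.2% lower with fusion protein than with combination. The median log2 difference of the 12 was -0.05 for fusion protein against vehicle, 0.13 for combination against vehicle and -0.20 for fusion protein against combination.

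Of 25 other genes of mechanically sensitive channels and their helpers, 20 were above the filter. With fusion protein against vehicle 1 of 20 rose, Mdfic, whose protein is a PIEZO partner (0.36 ± 0.13, adjusted p = 0.0444), and 5 fell. Beside this, 12% of all tested genes rose and 13.7% fell. Tmem63b, of the stretch-activated TMEM63 family, averaged a scaled value of 1797 ± 148 in fusion protein and 2391 ± 175 in vehicle libraries, with a log2 difference of -0.39 ± 0.08 (adjusted p = 0.00144). The potassium channel genes Kcnk18 (TRESK, -0.37 ± 0.08, adjusted p = 0.00374) and Kcnk10 (TREK-2, -0.24 ± 0.07, adjusted p = 0.0168) fell too. With the combination 1 of 20 rose against vehicle, Tmem150c (0.18 ± 0.07, adjusted p = 0.0476), and 6 fell, led by Tmem63b (-0.29 ± 0.08, adjusted p = 0.00902), the acid-sensing channel gene Asic2 (-0.25 ± 0.07, adjusted p = 0.0129) and the potassium channel gene Kcnk4 (TRAAK, -0.28 ± 0.09, adjusted p = 0.0168). Beside this, 24.2% of all tested genes rose and 12.3% fell, and 36.5% were called in either direction. Between the treatments 3 of 20 were lower with fusion protein, Kcnk2 (TREK-1, -0.33 ± 0.08, adjusted p = 0.0074), Kcnk18 (-0.24 ± 0.08, adjusted p = 0.039) and Tmem150c (-0.19 ± 0.07, adjusted p = 0.0426), and none was higher. Beside this, 22.2% of all tested genes were lower and 7.35% higher. The median log2 difference of the 20 was -0.15, -0.03 and -0.10 for fusion protein against vehicle, combination against vehicle and fusion protein against combination.

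Of 32 genes of proteins that bind, traffic or modify TRP channels, 30 were above the filter. Against vehicle 3 rose and 4 fell with fusion protein, beside 25.8% of all tested genes called in either direction, and 10 rose and 2 fell with the combination, beside 36.5%. S100a10, whose protein p11 carries channels to the membrane together with annexin A2, rose by 0.42 ± 0.06 with fusion protein (adjusted p = 9.86e-05) and by 0.53 ± 0.06 with the combination (adjusted p = 9.71e-06). Its scaled value averaged 9744 ± 495 in fusion protein, 10560 ± 543 in combination and 7271 ± 264 in vehicle libraries. Anxa2, annexin A2 itself, rose by 0.42 ± 0.06 with fusion protein (adjusted p = 0.000204) and by 0.48 ± 0.07 with the combination (adjusted p = 4.15e-05). Gabarap, whose protein binds TRPV1, rose by 0.32 ± 0.08 with fusion protein (adjusted p = 0.00529) and by 0.53 ± 0.08 with the combination (adjusted p = 8.37e-05). Pip5k1c, which makes the membrane lipid PIP2 that many TRP channels need, fell by 0.36 ± 0.09 with fusion protein (adjusted p = 0.00559) and by 0.55 ± 0.09 with the combination (adjusted p = 0.000169). Plcg1 (-0.33 ± 0.08, adjusted p = 0.00465) and Cdk5r1 (-0.32 ± 0.09, adjusted p = 0.0128) fell with fusion protein. Between the treatments 9 of 30 were lower with fusion protein and none was higher, beside 29.5% of all tested genes called, with Plcb4 (-0.41 ± 0.08, adjusted p = 0.00539), Pik3r1 (-0.40 ± 0.09, adjusted p = 0.00771) and Prkca, protein kinase C alpha (-0.44 ± 0.11, adjusted p = 0.0113), at the head. The median log2 difference of the 30 was -0.01 for fusion protein against vehicle, 0.15 for combination against vehicle and -0.12 for fusion protein against combination.

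**Figure D4:**
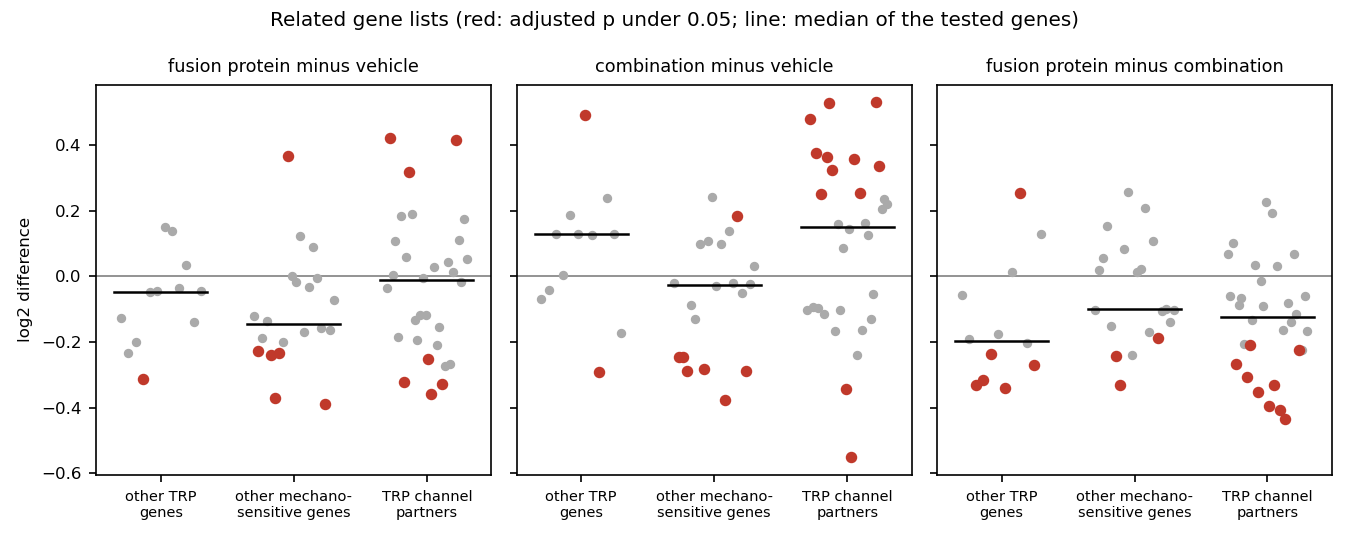
Log2 differences of the tested genes of 3 lists (other TRP channels, other mechanically sensitive channels, TRP partners) in the 3 comparisons. Each point is a gene, red where it passed an adjusted p of 0.05, and the line is the median. TRP partners that passed lie above zero for 10 genes of combination against vehicle and below zero for 9 genes of fusion protein against combination. Of all tested genes, 24.2% were higher in the former comparison and 22.2% lower in the latter.

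Markers of sensory neuron classes were counted beside the channels. Of 22 such markers, 3 rose and 2 fell with fusion protein against vehicle, beside 25.8% of all tested genes called in either direction. With combination against vehicle 8 rose and 2 fell, beside 36.5%, and 6 were lower and none higher with fusion protein than with combination, beside 29.5%. Calca and Tac1, neuropeptide genes of the peptidergic nociceptors that carry Trpv1, rose with both treatments against vehicle. Calca rose by 0.43 ± 0.09 on the log2 scale with fusion protein (adjusted p = 0.0019) and by 0.35 ± 0.09 with the combination (adjusted p = 0.00613). Tac1 rose by 0.29 ± 0.08 with fusion protein (adjusted p = 0.012) and by 0.34 ± 0.08 with the combination (adjusted p = 0.00399). Nppb, a peptide gene of itch neurons, rose with both too, by 0.38 ± 0.11 with fusion protein (adjusted p = 0.0128) and by 0.53 ± 0.11 with the combination (adjusted p = 0.0011). Mrgprx1, an itch receptor gene, rose by 0.50 ± 0.09 with the combination (adjusted p = 0.000492), and its difference with fusion protein was 0.17 ± 0.09 (adjusted p = 0.182). Genes of the touch and body-position neurons, in which Piezo2 is high, did not move one way. Ntrk3, their NT-3 receptor, fell by 0.69 ± 0.10 with fusion protein (adjusted p = 9.18e-05) and by 0.34 ± 0.10 with the combination (adjusted p = 0.0122). Pvalb, a calcium-binding protein of body-position neurons, rose by 0.31 ± 0.08 with the combination (adjusted p = 0.00732) and had a difference of 0.19 ± 0.08 with fusion protein (adjusted p = 0.0766). Nefh, the heavy neurofilament of large neurons, had a difference of 0.11 ± 0.13 with fusion protein (adjusted p = 0.584) and 0.18 ± 0.14 with the combination (adjusted p = 0.32). Of the 14 pan-neuronal markers, 1 rose and 2 fell with fusion protein against vehicle, beside 25.8% of all tested genes called in either direction. With combination against vehicle 5 rose and 2 fell, beside 36.5%. Between the treatments 6 were lower with fusion protein and none was higher, where 22.2% of all tested genes were lower and 7.35% higher. When each library was centred on these markers, Trpm2, Trpm3 and Piezo2 kept their calls for fusion protein against vehicle, Trpa1, Trpm2 and Piezo1 kept theirs with combination against vehicle, and Piezo1 kept its call between the treatments. With this centring 18.4%, 24.9% and 8.87% of all tested genes were called, in the same order of comparisons. The calls of Trpm3 (-0.31, adjusted p = 0.0725), Trpm8 (-0.23, adjusted p = 0.169) and Piezo2 (-0.29, adjusted p = 0.1) between fusion protein and combination ended, as did those of Trpa1 with fusion protein (0.25, adjusted p = 0.101) and Trpv1 with the combination (0.20, adjusted p = 0.0812) against vehicle.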

How the data were processed

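The deposited table holds 36722 genes by 16 libraries of polyA-selected DRG RNA. Per the submitters' processing notes, FastQC, STAR, HTSeq and DESeq2 were used with build GRCm38, without versions. The authors deposited variance-stabilised values, which are on a log2 scale, and per the file headers they added the GC content of each gene in percent. The 60 lowest distinct values (of 11441) served to fit the 2 parameters of the inverse transform, which gave a whole number, within 0.01, for 100% of the values. These scaled values had been normalised before the transform by a step not given in the sources used here, so depth is unknown and no counting interval is given. An undetected gene was taken to have 1 (log2 6.17), and near this floor log2 differences are compressed. The lowest scaled value was 0 (log2 5.99), held by 34 values in 2 libraries. The deposited p-value columns name no comparison and were not used.

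Genes with a mean log2 value of at least 6.99, which is 1 above the lowest value, were tested (13385 genes). One linear model held the 16 libraries, and limma 3.58.1 (R 4.3.3) gave the 3 contrasts with moderated two-sided tests, using a robust prior that depends on the mean level. P-values were adjusted by Benjamini and Hochberg's method across the 13385 genes, and 0.05 was the threshold. The fit was tested on simulated data. Differences are log2 with the SE of limma, and intervals are 95%. Both treatments share the vehicle libraries. Exons and lengths came from GENCODE M21 (36345 genes matched) and promoters from RefSeq. The member genes and the gene lists were chosen with earlier results of these data known. From each list up to 3 genes per direction with the lowest p are named (a few that meet this rule are not reported here), besides the 8 channels, and the 2 genes with the highest r over group-centred values are named as most like each channel. GC and length trends were removed per library by loess (span 0.5) over 13370 genes. Alternatives covered the filter, the normalisation, the scale, library weights, the samples fitted, sample numbers, the replicate block, GC and length, the threshold and each library left out. Centring on pan-neuronal markers and the longest transcript as length were chosen after seeing the data. Python 3.11.15 was used for the rest.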

Additional observations from a re-analysis of the deposited data

Results flagged for a closer look

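Of 24 combinations of a gene and a group, 2 had a library that stood apart from the rest of its group by Dixon's criterion, which chance alone flags in about 1 of 20 groups. Piezo1 in fusion protein replicate 1 had a log2 value of 8.56 (scaled value 260), and its gap to the nearest library was 0.677 of the range of the group. In the same library the macrophage markers (7134), the neutrophil markers (7611) and the endothelial markers (3477) had their highest sums of scaled values of all libraries. The part of these in this value was not tested. Without this library, Piezo1 gave a log2 difference of 0.34 between fusion protein and combination (limma, adjusted p = 0.0162) and -0.18 between fusion protein and vehicle (adjusted p = 0.149). Trpv2 in vehicle replicate 5 had a log2 value of 10.57 (scaled value 1395) with a gap of 0.713 of the range. This is the 1 vehicle library with a sample number from 12 to 19, and without it Trpv2 gave 0.15 for fusion protein against vehicle (adjusted p = 0.147) and 0.15 for combination against vehicle (adjusted p = 0.135).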

How the results depend on the processing

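The 8 genes were recomputed in 688 combinations of a gene, a comparison and an alternative: 552 kept their direction and their side of the threshold, 85 kept the direction and lost the call, 6 gained one, and 45 changed sign, of which 3 had been called. The count of 4 called genes for fusion protein against vehicle became 2 without a filter, 7 with array weights, 1 within sample numbers 1 to 8, 2 with GC and length trends removed, 2 with the late numbers added to this, 1 with the replicate block added to it, and 2 with the longest transcript as length. The share of all genes called under these was 5.24%, 45.6%, 16.2%, 25.3%, 25.6%, 22.2% and 22.8%. For combination against vehicle the 4 became 0 within numbers 12 to 19 (limma, 2 at an unadjusted p under 0.05; the 1 vehicle library there is assumed to vary like the others), 1 with GC and length trends removed, 0 with the late numbers added (0 unadjusted), 2 with the replicate block added, and 2 with the longest transcript, beside 5.71%, 25.3%, 12.5%, 26.5% and 26.3% of all genes. For fusion protein against combination the 4 became 0 without a filter (limma, 4 unadjusted), 2 with quantile normalisation, 0 with GC and length trends removed (3 unadjusted), 0 with the late numbers added (1 unadjusted), 1 with the replicate block added, 1 at a threshold of 0.01, 1 with the longest transcript and 1 when centred on pan-neuronal markers, beside 0.531%, 17.7%, 10.2%, 6.12%, 11.4%, 6.78%, 10.4% and 8.87% of all genes. Without a filter, genes at the floor entered the fit. The cause of the other changes was not tested. With 1 library left out the counts were 3 to 4, 3 to 4 and 2 to 4 (fusion protein against vehicle, combination against vehicle, fusion protein against combination), and the 2 in the last were without fusion protein replicate 5 or 6 or combination replicate 5. The share of all genes called in these fits ran from 19.0% to 27.3%, 30.1% to 40.1% and 14.9% to 39.2%, in the same order.

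The replicate block alone gave 3 for fusion protein against vehicle, 4 for combination against vehicle and 3 for fusion protein against combination, beside 24.0%, 38.8% and 25.6% of all genes. Deviations of the 15 same-number pairs correlated at -0.20 to 0.60, 7 of them over 0.1, and 6 libraries correlated best with one of their own number, so the numbers were not taken as pairs. The split of all called genes for fusion protein against combination, 984 higher and 2966 lower, became 975 and 1388 with quantile normalisation, 729 and 634 with GC and length trends removed, and 861 and 326 when centred on pan-neuronal markers. For combination against vehicle, 3240 higher and 1651 lower became 1429 and 1908 when centred on these markers and 928 and 748 with the trends removed and the late numbers added. For fusion protein against vehicle, 1610 higher and 1840 lower became 1737 and 1236 with the trends removed and the replicate block added.

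Values of the other sign follow, with the far end of the range for left-out libraries where there is one. With GC and length trends removed, with the late numbers added and with the replicate block added, in that order, Trpm2 was 0.013, 0.011 and 0.017 and Piezo1 0.18, 0.19 and 0.19 for fusion protein against vehicle, and Trpv2 was 0.016, 0.083 and 0.0033, Trpa1 0.035, 0.055 and 0.0071 and Trpm2 0.030, 0.036 and 0.034 for fusion protein against combination. Trpv1 was 0.0017 for this comparison with the late numbers added. With the longest transcript, Piezo1 was 0.23 for fusion protein against vehicle, and Trpv2 0.011, Trpa1 0.056 and Trpm2 0.037 for fusion protein against combination. For fusion protein against combination, Trpv1 was 0.037 within numbers 12 to 19, 0.061 with quantile normalisation and 0.014 with the late numbers as a covariate. Trpv2 was 0.080, 0.10 and 0.090 under these 3, 0.037 with array weights, 0.068 when centred on pan-neuronal markers, 0.030 with median centring and 0.0067 to 0.038 without combination replicate 1, 3 or 5 or fusion protein replicate 1 or 4 (0.017, 0.0067, 0.038, 0.0070 and 0.037), with -0.049 at the other end without combination replicate 2. Trpm2 was 0.027 within numbers 12 to 19, 0.017 with quantile normalisation, 0.050 when centred on pan-neuronal markers and 0.013 with median centring. For combination against vehicle, Trpv2 was -0.0096 within numbers 12 to 19, Piezo2 was 0.0061 without combination replicate 1 and -0.16 without vehicle replicate 1, and Trpm3 was -0.059 with quantile normalisation, -0.042 with array weights, -0.044 when centred on pan-neuronal markers, -0.0011 without combination replicate 2 and -0.046 without vehicle replicate 1, against 0.085 without vehicle replicate 3.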
